A study of Mus musculus with 8 samples.

Results

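Macrophage and lipid-associated macrophage (LAM) genes were examined by bulk RNA-seq of BAT (brown adipose tissue), the thermogenic fat depot. The set held 50 genes of the 31053 in the count table, taken by symbol from a list of general macrophage, tissue-resident, monocyte, antigen-presenting and LAM genes, with scavenger receptors left out. There were 8 libraries, 4 labelled WT and 4 labelled Cd36KO, from C57BL6/J mice labelled as 8 weeks old, and the series describes them as biological replicates. CD36 binds and imports lipids as a scavenger receptor, and the comparison asked how its loss alters the BAT transcriptome. The labels name no Cre and no floxed allele, whereas the study ties its BAT transcriptome to CD36 flox/flox × Csf1r Cre mice, in which the promoter of the macrophage receptor gene Csf1r drives Cre. That model deletes the gene in cells that express Csf1r, while adipocytes and endothelial cells keep it. The methods give a later age for such mice, whereas the legend of this transcriptome gives the age in the labels. The labels give brown adipose tissue as the source and the stromal vascular fraction as the cell type. All 10 adipocyte markers were nevertheless counted, at a sum of 12205 to 19456 CPM (counts scaled to the same total in each library). The study used male mice unless stated otherwise, whereas Xist held 772 to 1588 counts and 4 Y-linked genes held 0 to 3 counts in each library. P-values measure only the spread between these 8 libraries.

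Macrophages of adipose tissue descend from blood monocytes or renew locally, and the growth factor CSF1 keeps them alive through its receptor CSF1R. Monocytes enter tissue through the chemokine receptor CCR2, whereas resident cells of many tissues carry CX3CR1, FOLR2, TIMD4 or CLEC10A. In obesity, a subset gathers around lipid-laden adipocytes, senses lipids through TREM2 and its adaptor TYROBP, and turns on Spp1, Gpnmb, Lgals3, Itgax and Cd9. In bulk tissue, fewer macrophages and less RNA per macrophage cannot be told apart.

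A single member of the 50, Retnla, differed between the genotypes in the DESeq2 Wald test, and it was lower in Cd36KO. The fold changes of the other members were spread on both sides of 0. Counts were too few to measure several defining genes of LAMs, among them Trem2 and Spp1. A mean normalized count of at least 10 (counts divided by the library's size factor) was reached by 32 members, and these 32 were also the members to which DESeq2 gave an adjusted p. Another 17 were counted below that level, and Vsig4 had no count in any library. Of the 32, only Retnla (1) passed at an adjusted p under 0.05, a share of 3.12%, against 2.95% of the 9617 genes tested. In the lower direction the background was 1.53%. An unadjusted p under 0.05 was given to 8 of the 32 (25%), 5 higher and 3 lower in Cd36KO, against 15.6% of all genes tested. The groups did not overlap for 3 of the 32 (9.38%), all higher in Cd36KO, against 8.65% of the 9834 genes at that level, of which 4.74% were higher and 3.91% lower. The edgeR quasi-likelihood test passed none of the members and 0.143% of its 9793 genes, and 7 members had an unadjusted p under 0.05 there. The median log2 fold change of the 32 was -0.00, against -0.01 over all genes tested, and 15 of the 32 estimates were above 0.

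Promoters of 4 members are shown because these genes carried the only call, the largest positive estimate among the 32 tested, and estimates of opposite sign among class II chains. The sequences are from RefSeq on GRCm38.p6 and run from 250 bases before to 50 bases after the annotated start, 5′ to 3′ on the gene's strand. For Retnla (chr16:48842359-48842658, plus strand), capitals mark a palindrome of the type bound by STAT6, the factor that carries the interleukin 4 signal in macrophages. For Cx3cr1 (chr9:120068247-120068546, minus strand), H2-Aa (chr17:34287774-34288073, minus strand) and H2-Eb1 (chr17:34305617-34305916, plus strand), capitals mark CCAAT or its reverse complement. These letters are the core of the Y box of class II promoters. Cx3cr1 is not a class II gene, however, and CCAAT occurs in 37.4% of all promoters searched.
Retnla: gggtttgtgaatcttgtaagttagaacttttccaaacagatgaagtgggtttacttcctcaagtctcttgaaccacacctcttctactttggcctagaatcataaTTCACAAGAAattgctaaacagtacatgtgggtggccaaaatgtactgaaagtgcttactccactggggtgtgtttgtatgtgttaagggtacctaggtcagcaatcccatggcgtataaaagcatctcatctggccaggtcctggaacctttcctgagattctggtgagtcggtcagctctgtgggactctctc
Cx3cr1: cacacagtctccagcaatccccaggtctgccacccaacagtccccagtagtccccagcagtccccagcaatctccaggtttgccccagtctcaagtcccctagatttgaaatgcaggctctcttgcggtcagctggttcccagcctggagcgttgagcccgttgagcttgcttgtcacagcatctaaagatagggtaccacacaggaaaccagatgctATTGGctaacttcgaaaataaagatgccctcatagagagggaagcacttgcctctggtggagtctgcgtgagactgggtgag
H2-Aa: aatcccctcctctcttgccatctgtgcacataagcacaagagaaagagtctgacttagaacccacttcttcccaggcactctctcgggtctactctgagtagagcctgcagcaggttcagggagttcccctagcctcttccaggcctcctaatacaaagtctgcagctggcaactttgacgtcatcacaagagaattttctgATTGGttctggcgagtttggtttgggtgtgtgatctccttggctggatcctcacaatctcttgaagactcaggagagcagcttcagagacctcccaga
H2-Eb1: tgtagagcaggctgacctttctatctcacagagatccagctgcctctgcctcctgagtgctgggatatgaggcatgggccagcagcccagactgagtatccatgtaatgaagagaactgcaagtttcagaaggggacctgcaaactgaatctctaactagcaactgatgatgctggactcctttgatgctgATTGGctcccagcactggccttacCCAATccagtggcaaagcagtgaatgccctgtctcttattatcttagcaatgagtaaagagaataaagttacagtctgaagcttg

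Promoters were matched for 38 of the 50 members, 45 promoters in all, and 4 motifs were searched on both strands. CCAAT was found in 37.8% of the member promoters, against 37.4% of all 32851 promoters of the same length. The PU.1 core GAGGAA was found in 18 of the 45 member promoters, against 28.3% of all, and TATAAA in 22.2% against 13.6%. The palindrome TTCNNNNGAA was found in 11.1% (Cd53, Itgax, Lgals3, Ms4a7 and Retnla) against 7.0%. The motifs do not overlap each other in the 4 sequences shown. These matches describe letters only. Adgre1, Csf1r, Cd14, Tyrobp, Spi1, Clec10a, Cd74, H2-Ab1, Ccl2, Cd52 and Siglec1 were among those not matched.

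The labels were first checked with the targeted gene. Cd36 had 2796, 2958, 3505 and 2412 normalized counts in WT replicates 1 to 4. It had 1926 in the Cd36KO library whose column carries no replicate number (the unnumbered library), and 2109, 2384 and 1930 in Cd36KO replicates 2, 3 and 4. All Cd36KO values lay below all WT values, but the transcript remained abundant. The log2 fold change was -0.48 ± 0.16 (SE), with a DESeq2 adjusted p of 0.0602. Groups lay apart in this direction for 3.91% of genes at a mean of at least 10. The adipocyte markers summed to 16602 ± 2710 CPM in WT and 13004 ± 694 in Cd36KO (SD over 4 libraries). Their part in the Cd36 values was not tested. Library totals ran from 2679785 to 4097953 counts. The 50 members together held 765 ± 68.0 CPM in WT and 793 ± 69.1 in Cd36KO (SD over 4 libraries), and the groups overlapped. Without the 4 class II genes the sum went the other way, at 430 ± 51.5 in WT and 378 ± 29.9 in Cd36KO, and the groups overlapped too. Between 40 and 46 members were detected per library. Skeletal muscle markers reached 18368 CPM in WT replicate 1, against 13.6 to 3365 in the other libraries. That library also stood apart over all genes, with a chi-square over its degrees of freedom of 38.6 to 62.7 against the other WT libraries, where all other pairs within a genotype gave 7.07 to 18.8. Without it, Retnla was at -1.07 with a DESeq2 adjusted p of 0.0151. The 8 white fat markers summed to 261 to 1269 CPM in WT and 133 to 211 in Cd36KO. Lep, Hoxc8, Aldh1a1, Nnat, Npr3 and Agt passed lower in Cd36KO, and Hoxc10 had no count.

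**Figure D1:**
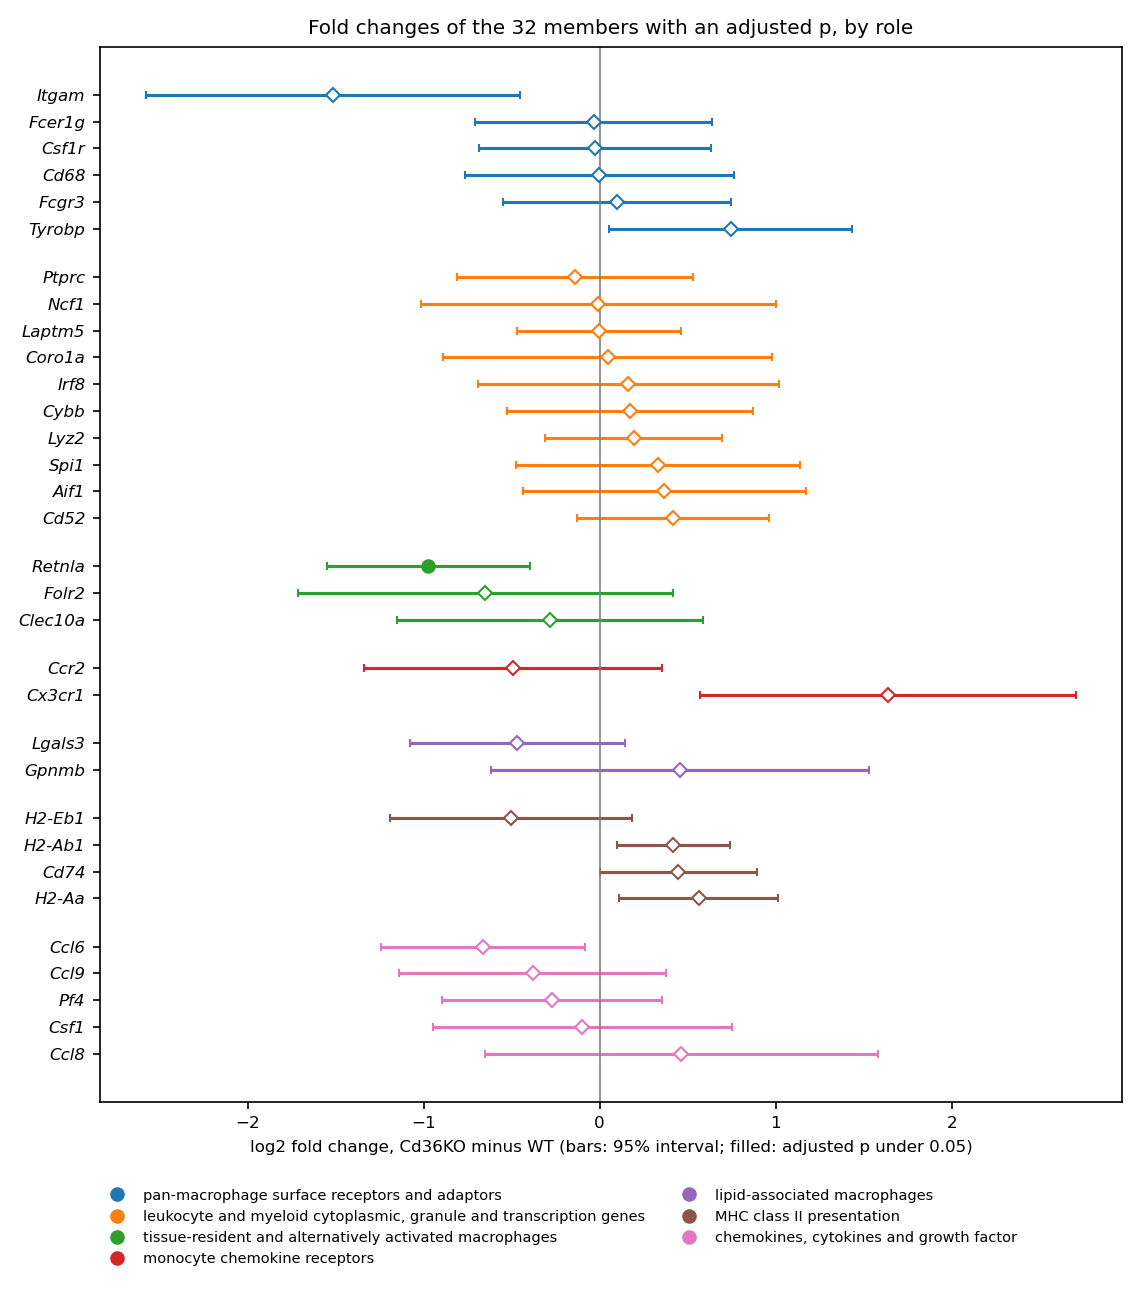
DESeq2 log2 fold changes (Cd36KO minus WT, 4 libraries each) of the 32 members with an adjusted p, grouped by role, with 95% intervals. The filled point, Retnla, is the only member with an adjusted p under 0.05, and most intervals cross 0.

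Among the tissue-resident and alternatively activated genes, Retnla fell and the other members did not pass. Retnla encodes RELMα, a secreted protein that macrophages make in response to interleukin 4 and that adipocytes also express. It had 123, 199, 107 and 198 normalized counts in WT replicates 1 to 4. The Cd36KO values were 51.3 in the unnumbered library and 112, 91.0 and 66.4 in replicates 2, 3 and 4. The groups overlapped only through WT replicate 3, which lay below Cd36KO replicate 2. The means were 157 ± 48.6 in WT and 80.1 ± 26.7 in Cd36KO (SD over 4 libraries). The log2 difference, Cd36KO minus WT, was -0.97 ± 0.30 (SE), with a DESeq2 adjusted p of 0.0398 and an edgeR adjusted p of 0.126. An exact two-sided permutation test gave p = 0.0571. The call was kept in 7 of 18 alternative settings, and the estimate stayed between -1.26 and -0.77. With the white fat score as a covariate the DESeq2 adjusted p was 0.454, and without WT replicate 2, WT replicate 4, the unnumbered library, Cd36KO replicate 3 or Cd36KO replicate 4 it was 0.169, 0.0683, 0.187, 0.0629 and 0.132. The part of the white fat markers in this difference was not tested.

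Clec10a encodes a galactose-binding lectin of resident macrophages and dendritic cells. It had 13.5, 63.7, 47.0 and 81.1 normalized counts in WT and 43.5, 57.5, 43.0 and 25.9 in Cd36KO (unnumbered, 2, 3, 4, the order used for all values that follow). WT replicates 1 and 4 held the lowest and the highest value, so that the Cd36KO range lay inside the WT range. On the log2 scale the difference was -0.28 ± 0.44 (SE), DESeq2 adjusted p = 0.828. It was 2.18 with the white fat score as a covariate, DESeq2 adjusted p = 0.0718. Folr2, a folate receptor of resident macrophages, ranged from 8.12 to 24.7 in WT and from 4.58 to 19.4 in Cd36KO (log2 fold change -0.65, adjusted p = 0.618). The median of the 3 estimates was -0.65. Expression of the other resident genes was at the limit of detection. Timd4, a receptor for phosphatidylserine, had 9 counts in all, Siglec1, a sialic acid receptor, had 8, and Chil3, a chitinase-like protein, had 3. For Vsig4, a complement receptor, 0 counts allow a level of up to 0.732 to 1.12 CPM, depending on the library (a floor of 3 counts, for counting error only).

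**Figure D2:**
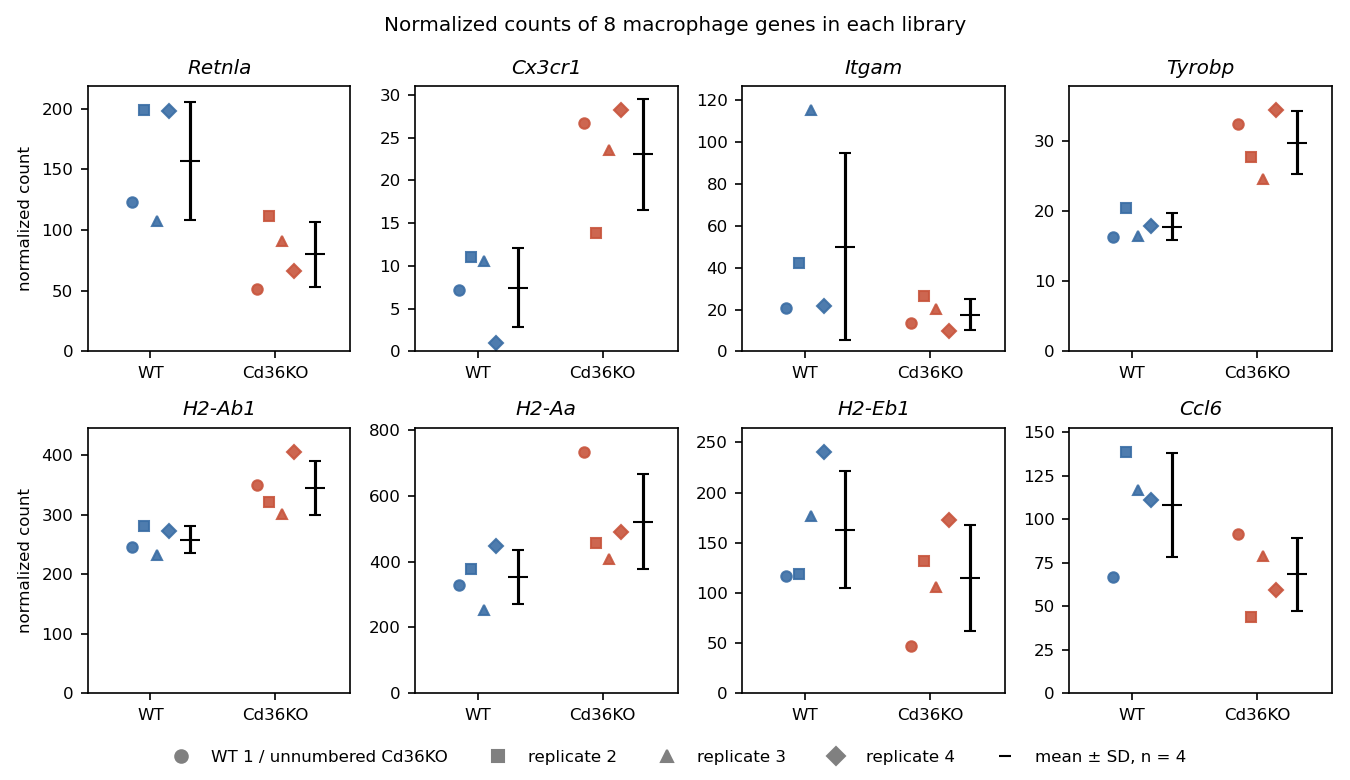
Normalized counts of 8 members in each library (points, shaped by replicate) with the mean and SD of 4 libraries per genotype (bars, y axes from 0). Cx3cr1, Tyrobp and H2-Ab1 do not overlap between the genotypes, Itgam shows 1 high WT library at 115, and the other 4 genes overlap.

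The chemokine receptors of monocytes and resident cells had estimates of opposite sign, and neither passed. Cx3cr1 encodes the fractalkine receptor of patrolling monocytes and of several resident macrophages. It had 7.22, 11.0, 10.6 and 0.989 normalized counts in WT and 26.7, 13.8, 23.5 and 28.2 in Cd36KO. Every Cd36KO library was above every WT library, and WT replicate 4 held a single read. The means were 7.46 ± 4.64 and 23.1 ± 6.48 (SD over 4 libraries), a log2 fold change of 1.64 ± 0.55 (SE). The DESeq2 adjusted p was 0.0691, the edgeR adjusted p was 0.148, and the exact two-sided permutation p was 0.0286, the smallest that 4 against 4 libraries allow. It passed at an adjusted p of 0.0426 in the fit on genes with 10 counts in 4 libraries. Exons of Gm33858 overlap Cx3cr1 on the opposite strand, and the strand setting of the counting is not given in the sources used here. Ccr2, the receptor that brings monocytes into tissue, had 21.7, 17.8, 31.8 and 39.6 normalized counts in WT and 11.1, 32.2, 15.3 and 19.8 in Cd36KO. These groups overlapped, with a log2 fold change of -0.49 ± 0.43 (SE) and a DESeq2 adjusted p of 0.639.

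For the general macrophage receptors and adaptors, 6 of 10 members had enough counts and none passed. Csf1r, the CSF1 receptor and the source of the Cre promoter in the study's model, had 55.1, 166, 159 and 136 normalized counts in WT and 158, 89.8, 90.0 and 166 in Cd36KO. WT replicate 1, the library with the most muscle RNA, was lowest, and the groups overlapped fully. The log2 fold change was -0.03, with a 95% interval from -0.69 to 0.63. With the white fat score as a covariate it was 1.97, with a DESeq2 adjusted p of 0.00348. The summed markers of that score separate the genotypes, at 261 to 1269 CPM in WT and 133 to 211 in Cd36KO. Score and genotype are therefore hard to tell apart in that fit, which called 690 genes in all. Adgre1, which encodes F4/80, was scarce at 7, 10, 10 and 1 raw counts in WT and 1, 4, 6 and 7 in Cd36KO. Its groups overlapped, and DESeq2 gave it no adjusted p. Cd68, a lysosomal glycoprotein of macrophages, was even across libraries, from 14.3 to 24.2 normalized counts, with a log2 fold change of -0.00 and an interval from -0.77 to 0.76.

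The signalling adaptors Tyrobp and Fcer1g, which carry activation motifs for receptors that have none of their own, differed in how far their groups were apart. Tyrobp, the adaptor of TREM2, had 16.2, 20.4, 16.5 and 17.8 normalized counts in WT and 32.3, 27.6, 24.5 and 34.3 in Cd36KO. The WT libraries were close to each other, and all Cd36KO libraries lay above them. The means were 17.7 ± 1.90 and 29.7 ± 4.44 (SD over 4 libraries), with a log2 fold change of 0.75 ± 0.35 (SE). The exact two-sided permutation p was 0.0286, whereas the DESeq2 adjusted p was 0.268 and the edgeR adjusted p 0.215. Fcer1g, the adaptor of Fc receptors, had 34.3, 50.1, 34.1 and 29.7 normalized counts in WT and 52.4, 28.8, 23.5 and 40.4 in Cd36KO. Its groups overlapped fully, with a log2 fold change of -0.03 and an interval from -0.71 to 0.64. Within a library, there were 47.4, 40.7, 48.3 and 60.0 Tyrobp counts per 100 Fcer1g counts in WT, and 61.7, 96.0, 104 and 84.9 in Cd36KO. This ratio, which does not depend on the size factor, did not overlap between genotypes.

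Itgam encodes CD11b, the integrin used to sort myeloid cells. It had 20.8, 42.5, 115 and 21.8 normalized counts in WT and 13.4, 26.5, 20.5 and 9.91 in Cd36KO. A single library, WT replicate 3, held far more than the rest, and the groups overlapped. On the log2 scale the difference was -1.51 ± 0.54 (SE), with a DESeq2 adjusted p of 0.101. An exact two-sided permutation test gave p = 0.114. Without WT replicate 3 the estimate was -0.71, and without WT replicate 1 it was -1.77 with an adjusted p of 0.0207. With the white fat score as a covariate it was -0.07, and with the muscle score -2.40. Exons of Gm49368 overlap Itgam on the same strand, so its reads are less certain. Itgax, which encodes CD11c and lies next to Itgam on chromosome 7 (128129547 to 128150657 and 128062640 to 128118491, GRCm38), had 1, 5, 0 and 0 raw counts in WT and 9, 8, 6 and 6 in Cd36KO. The groups did not overlap at these very low counts, and DESeq2 gave it no adjusted p (log2 fold change 2.43, interval from 0.46 to 4.40). The Fc receptor Fcgr3 ranged from 21.7 to 39.9 normalized counts in WT and from 30.7 to 47.3 in Cd36KO, with a log2 fold change of 0.10. Cd14, Fcgr1 and Ms4a7, a lipopolysaccharide co-receptor, an Fc receptor and a membrane-spanning protein of macrophages, were counted 52, 55 and 68 times in all.

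**Figure D3:**
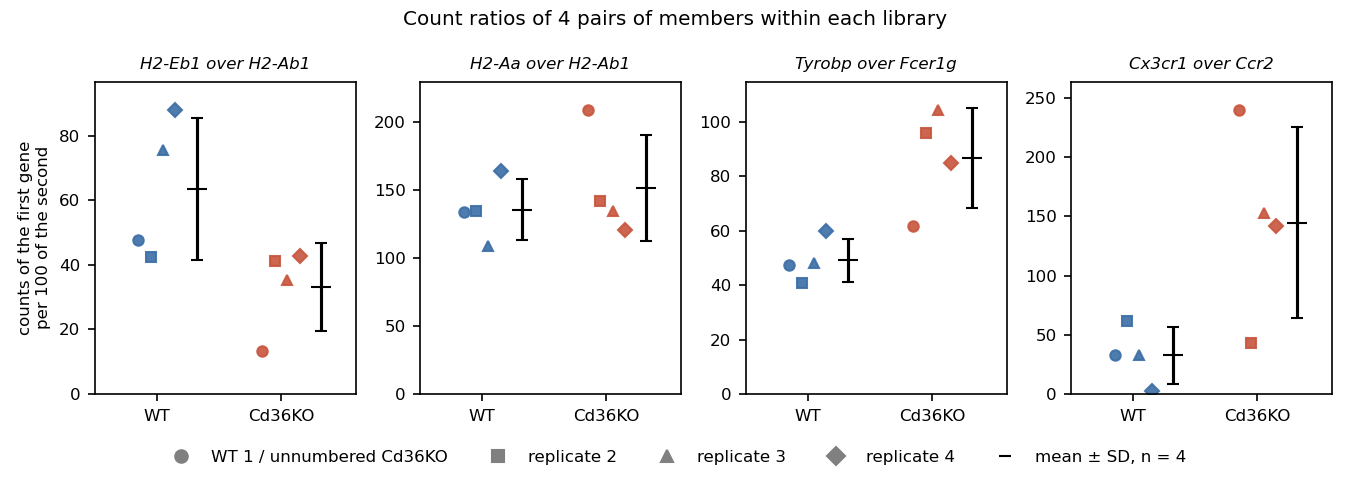
Counts of 1 member per 100 counts of another, within each library (points), with the mean and SD of 4 libraries (bars, y axes from 0). Tyrobp over Fcer1g is the only ratio of the 4 whose groups do not overlap, and the unnumbered Cd36KO library is lowest for H2-Eb1 over H2-Ab1 at 13.4 and highest for H2-Aa over H2-Ab1 at 209.

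The 4 ratios were chosen after the values had been seen, and each was compared by an exact two-sided permutation test over 70 arrangements. The adjusted p over the 4 was 0.0762 for Tyrobp over Fcer1g (means of 49.1 ± 8.03 and 86.7 ± 18.5 per 100, SD over 4 libraries). It was also 0.0762 for Cx3cr1 over Ccr2 (32.8 ± 24.3 and 145 ± 80.7) and for H2-Eb1 over H2-Ab1 (63.5 ± 21.9 and 33.1 ± 13.6). For H2-Aa over H2-Ab1 it was 0.543.

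MHC class II genes present extracellular peptides to T cells, and of the members they held the most counts of any role. Their sum was 335 ± 25.1 CPM in WT and 414 ± 55.5 in Cd36KO (SD over 4 libraries), and the groups overlapped at WT replicate 2 and Cd36KO replicate 3. None of the 4 members passed. The β chain gene H2-Ab1 had 246, 280, 233 and 273 normalized counts in WT and 350, 321, 302 and 405 in Cd36KO. The groups did not overlap on this scale, although they did when counts were scaled by the library total alone. The log2 difference, Cd36KO minus WT, was 0.42 ± 0.16 (SE), with a DESeq2 adjusted p of 0.153. An exact two-sided permutation test gave p = 0.0286.

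Its partner H2-Aa, the α chain gene, had 329, 378, 254 and 448 normalized counts in WT and 732, 457, 407 and 489 in Cd36KO. The unnumbered library was highest, and the groups overlapped through WT replicate 4. The log2 fold change was 0.56 ± 0.23 (SE), DESeq2 adjusted p = 0.174. Without WT replicate 4 the adjusted p was 0.0371, and with the muscle score as a covariate it was 0.0164. Without the unnumbered library the estimate was 0.36, with an adjusted p of 0.640. Cd74, the invariant chain that guides class II molecules through the cell, had 228, 295, 314 and 169 normalized counts in WT and 318, 322, 289 and 441 in Cd36KO. The groups overlapped, with a log2 fold change of 0.45 ± 0.23 (SE) and a DESeq2 adjusted p of 0.317.

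H2-Eb1, another class II β chain gene, had an estimate of the opposite sign. It had 117, 119, 176 and 240 normalized counts in WT and 46.8, 132, 106 and 173 in Cd36KO. The unnumbered library, highest for H2-Aa, was lowest here, and the groups overlapped. The log2 difference, Cd36KO minus WT, was -0.50 ± 0.35 (SE), DESeq2 adjusted p = 0.520. The 3 class II chain genes lie together on chromosome 17, H2-Ab1 at 34257689 to 34269419, H2-Aa at 34282744 to 34287823 and H2-Eb1 at 34305867 to 34316674 (GRCm38). Class II genes resemble each other in sequence, and the counting of reads shared between such genes is not given in the sources used here.

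Other genes of class II presentation were read from the same fit. Of 17 genes of the pathway with a row, members included, 12 had an adjusted p and none passed in either direction, with a median log2 fold change of 0.27. H2-DMb1, a chaperone of peptide loading, had 64.1, 54.4, 32.9 and 47.5 normalized counts in WT and 170, 99.0, 63.4 and 56.4 in Cd36KO (adjusted p = 0.132). Ciita, the master activator of these genes, had 18.4 ± 2.66 and 20.5 ± 11.7 normalized counts (SD over 4 libraries), with a log2 fold change of 0.14. Dendritic cells and B cells also express class II genes. Their 9 dendritic cell markers summed to 23.2 to 31.4 CPM in WT and 28.3 to 41.0 in Cd36KO, mostly from Zbtb46, which endothelial cells also express, and Cd209a had no count. The 12 B cell markers summed to 35.8 to 116 CPM in WT and 65.6 to 108 in Cd36KO, and Cd79a had no count. The 14 T and NK cell markers summed to 10.7 to 21.5 and 17.5 to 38.5. Only Trbc2, Ighm, Igkc and Zbtb46 of these lists had an adjusted p, and none of the 4 passed. The part of these cells in the class II values was not tested.

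LAM genes were sparsely counted, with 2 of 6 members above a mean of 10 and none passing. Lgals3 encodes galectin-3, a lectin of phagocytes. It had 50.6, 86.6, 84.7 and 122 normalized counts in WT and 84.7, 66.7, 55.2 and 42.7 in Cd36KO. The groups overlapped, with a log2 fold change of -0.47 ± 0.31 (SE) and a DESeq2 adjusted p of 0.500. Without WT replicate 4 the estimate was -0.25, and with the white fat score as a covariate it was 0.74. Gpnmb, a glycoprotein of lysosome-rich macrophages, had 8.12, 12.7, 8.23 and 10.9 normalized counts in WT and 5.57, 25.3, 12.3 and 12.2 in Cd36KO. Both the lowest and the highest value were in Cd36KO, and the DESeq2 adjusted p was 0.767.

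Trem2, the lipid receptor that defines LAMs, had 0, 2, 1 and 0 raw counts in WT and 0, 0, 0 and 3 in Cd36KO. No difference was detectable at this depth. Spp1, which encodes osteopontin, had 9 counts in WT replicate 1 and none in the other 7 libraries. Cd9, a tetraspanin used with CD36 to sort LAMs in the study, had 31, 5, 4 and 2 raw counts in WT and 5, 20, 5 and 8 in Cd36KO. WT replicate 1 and Cd36KO replicate 2 stood apart from the other 6, and the groups overlapped. Muscle markers were also highest in WT replicate 1, and their part in its Spp1 and Cd9 counts was not tested.

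**Figure D4:**
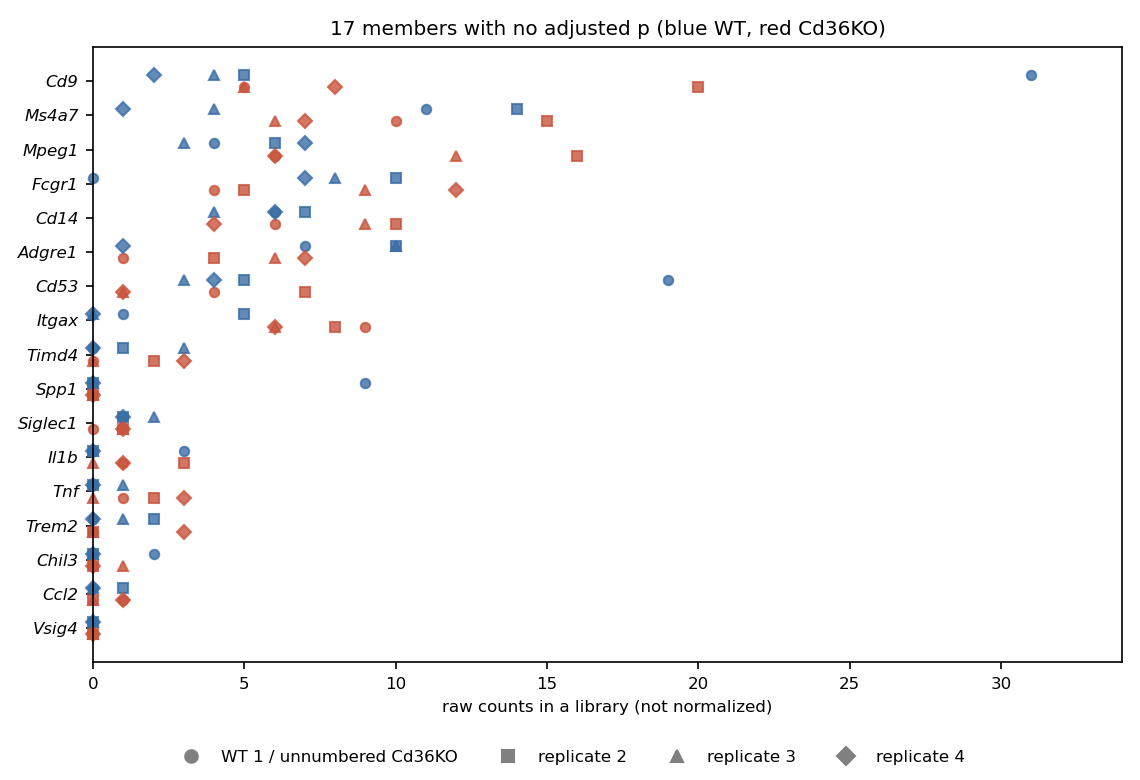
Raw counts per library (points, blue WT and red Cd36KO, shaped by replicate) of 17 of the 18 members to which DESeq2 gave no adjusted p, ordered by their total. No library holds more than 31 counts of any of them, Trem2 stays at 3 or fewer, and Vsig4 is at 0 in all 8.

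Further genes of the LAM programme, several of which adipocytes express strongly, were read from a list of 29. Of these, 20 had an adjusted p and none passed. The estimate was below 0 for 14 of the 20 and above 0 for 6, with a median log2 fold change of -0.29. The lowest was that of Fabp5, a fatty acid binding protein (-0.92, DESeq2 adjusted p = 0.0768), and Pla2g7, a secreted phospholipase (-0.40, adjusted p = 0.412), was lower in every Cd36KO library than in any WT library. Fabp5 and Pla2g7 were chosen after their values were seen, and Lipa and Tgfb1 as genes of the study. Lipa, the lysosomal acid lipase of LAMs, had 209, 218, 199 and 178 normalized counts in WT and 261, 246, 300 and 259 in Cd36KO. All Cd36KO values were above all WT values, with a log2 fold change of 0.41 ± 0.16 (SE), a DESeq2 adjusted p of 0.154. An exact two-sided permutation test gave p = 0.0286. Tgfb1, a secreted growth factor, had 1, 9, 4 and 10 raw counts in WT and 9, 12, 8 and 29 in Cd36KO. The groups overlapped, with a log2 fold change of 1.24 ± 0.66 (SE) and no adjusted p.

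The chemokine, cytokine and growth factor members summed to 55.2 to 80.6 CPM in WT and 44.4 to 55.6 in Cd36KO, overlapping at WT replicate 1. None of the 5 with an adjusted p passed. Ccl6, a chemokine of macrophages and granulocytes, had 66.8, 138, 116 and 111 normalized counts in WT and 91.4, 43.7, 78.8 and 59.5 in Cd36KO. Only WT replicate 1 fell within the Cd36KO range. On the log2 scale the difference was -0.66 ± 0.30 (SE), DESeq2 adjusted p = 0.229. It was 0.36 with the white fat score as a covariate, and it passed lower at an adjusted p of 0.0296 in the 6 libraries numbered 2 to 4.

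Ccl9, its neighbour on chromosome 11 (83572919 to 83578636, beside Ccl6 at 83587882 to 83593087, GRCm38), ranged from 17.2 to 25.9 normalized counts in WT and from 12.3 to 20.5 in Cd36KO. Ccl8, a chemokine made by resident macrophages, ranged from 5.93 to 15.3 and from 6.68 to 23.0. Pf4, a chemokine of platelets and resident macrophages, had 33.4, 45.9, 57.6 and 67.3 normalized counts in WT and 55.7, 35.7, 47.1 and 31.3 in Cd36KO. Its groups overlapped, with a log2 fold change of -0.27 ± 0.32 (SE) and a DESeq2 adjusted p of 0.763. Csf1, the ligand of CSF1R, was even, at 15.6 ± 2.84 and 14.5 ± 3.03 (SD over 4 libraries), and its log2 fold change was -0.10 with an interval from -0.95 to 0.75. Inflammatory mediators were at the limit of detection. Tnf had 0, 0, 1 and 0 raw counts in WT and 1, 2, 0 and 3 in Cd36KO, Il1b had 8 counts in all, and the monocyte attractant Ccl2 had 3.

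No leukocyte or myeloid gene of the cytoplasm, granules and nucleus passed. Of 12 members, 10 had an adjusted p, and the estimates of these 10 ran from -0.14 to 0.42. Lyz2 encodes lysozyme and is the gene whose promoter drives Cre in LysM-Cre mice. It had 128, 109, 120 and 169 normalized counts in WT and 206, 152, 94.1 and 149 in Cd36KO. The highest and the lowest values were both in Cd36KO, and the log2 fold change was 0.19 ± 0.26 (SE), DESeq2 adjusted p = 0.792. Laptm5, a lysosomal protein of blood cells, had 65.0, 55.2, 72.9 and 68.3 normalized counts in WT and 71.3, 66.7, 70.6 and 52.6 in Cd36KO. Its means were 65.3 ± 7.50 and 65.3 ± 8.69 (SD over 4 libraries), and its interval, from -0.47 to 0.46, was among the narrowest of the members.

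The pan-leukocyte phosphatase Ptprc, which encodes CD45, ranged from 20.8 to 51.0 normalized counts in WT and from 29.7 to 46.0 in Cd36KO. Aif1, the actin-binding protein IBA1, was between 23.7 and 57.6 in WT and reached 89.1 in the unnumbered Cd36KO library. Cd52, a small glycoprotein of leukocytes, gave the highest estimate of the 10, with 42.5 ± 9.20 and 57.0 ± 9.60 normalized counts (SD over 4 libraries) and a DESeq2 adjusted p of 0.501. Spi1 and Irf8, transcription factors of the myeloid lineage, had estimates of 0.33 and 0.16. Cybb and Ncf1, subunits of the phagocyte oxidase, had 0.17 and -0.01, and the actin regulator Coro1a had 0.05. The pore-forming protein gene Mpeg1 and the tetraspanin gene Cd53 were counted 60 and 44 times in all, with estimates of 1.11 and -1.07 and no adjusted p, and 19 of the Cd53 counts were in WT replicate 1. Exons of other genes overlap Ncf1, Coro1a, Cd52, Csf1r, Folr2, Cd9 and Il1b on the opposite strand and Cd74 and Spp1 on the same strand.

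**Figure D5:**
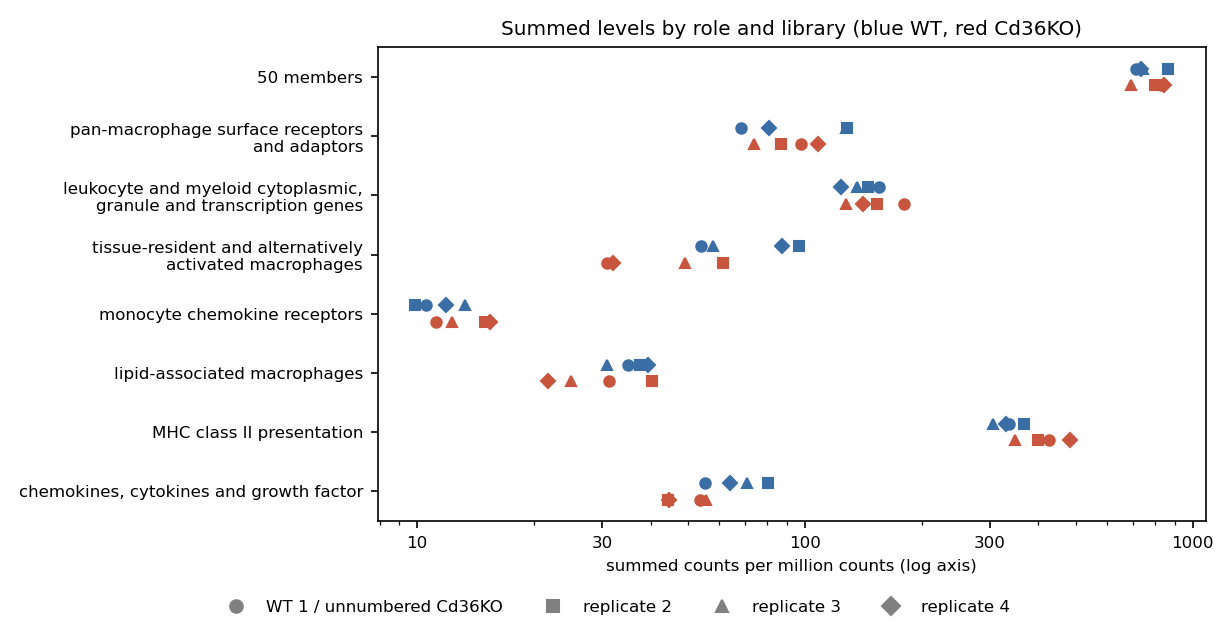
Summed CPM (log axis) for the 50 members and of each role in each library (blue WT, red Cd36KO, shaped by replicate). Every role overlaps between the genotypes, and the sum of the 50 members lies between 693 and 866 in all 8 libraries.

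Macrophage genes outside the 50 were read from a list of 45, of which 44 had a row. Of the 25 with an adjusted p, none passed higher and 2 passed lower, against 2.95% of all genes tested in either direction and 1.53% lower, and the median log2 fold change was -0.24. Maf, a transcription factor of resident macrophages that other cells of fat also express, had 227, 204, 199 and 176 normalized counts in WT and 107, 116, 79.8 and 79.3 in Cd36KO. The groups lay far apart, with a log2 fold change of -1.08 ± 0.20 (SE), a DESeq2 adjusted p of 8.08e-05 and an edgeR adjusted p of 0.0394. Cd163, the hemoglobin scavenger receptor of resident macrophages, had 46.9, 90.9, 115 and 59.3 normalized counts in WT and 36.8, 42.6, 27.6 and 25.2 in Cd36KO. These groups did not overlap either, and the DESeq2 adjusted p was 0.0183 whereas the edgeR adjusted p was 0.110. The groups also lay apart, lower in Cd36KO, for Mertk (log2 fold change -0.72), Ms4a6c (-1.13) and, at low counts, Tlr4 (-1.62), none of which passed. Tlr2 had 1, 1, 0 and 0 raw counts in WT and 1, 1, 1 and 4 in Cd36KO. Libraries of both genotypes were tied at 1 read, and the groups lay apart only after division by the size factor. Of the 18 genes of the CSF1 receptor pathway, 11 had an adjusted p and none passed, and of the 26 of ITAM signalling with a row, 6 had an adjusted p and none passed. The sum of the 44 other macrophage genes was 549, 610, 623 and 402 CPM in WT and 451, 418, 397 and 407 in Cd36KO. WT replicate 4 lay within the Cd36KO range. Fibroblast markers beside it summed to 968 ± 209 and 683 ± 55.3 CPM (SD over 4 libraries), with Col1a2 passing at an adjusted p of 0.000724. Brown adipocyte markers summed to 7448 ± 814 and 12170 ± 740, with Ucp1, Cidea, Cox7a1 and Cox8b passing higher in Cd36KO. The part of these cell types in the macrophage values was not tested.

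The 95% intervals of the 32 tested members extended 0.32 to 1.12 to each side on the log2 scale, with a median of 0.69. No library was highest throughout, since the highest value of the 32 members fell 6 times each in WT replicate 2, the unnumbered library and Cd36KO replicate 4, and never in WT replicate 1.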

How the data were processed

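The study's methods describe a service company's pipeline with bbduk for trimming, STAR for alignment to mm10 and HTSeq-count for counting, and DESeq2 for the authors' own tests. The submitters' processing notes name Trimmomatic, HISAT2 and DESeq2, on GRCm38 (mm10), and which aligner made these counts was not settled. The values analysed are the deposited counts, whole numbers for each gene with no normalization. A second deposited table holds log2 values, equal to log2 of the count over its DESeq2 size factor plus 1, and served for 1 alternative. Symbols and positions came from GENCODE M21 (GRCm38), and 30934 of 31053 identifiers had a symbol. The 119 without one held 3959 counts.

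Fold changes and p-values came from DESeq2 1.42.0 (Wald test, genotype only, default independent filtering, which left out genes below a mean of 11.0) in R 4.3.3, adjusted by the Benjamini-Hochberg method over all genes with an adjusted p. Alternatives used edgeR 4.0.16 (quasi-likelihood test, TMM, filterByExpr) and limma 3.58.1. They also covered TMM factors, a filter of 10 counts in 4 libraries, filtering off or tuned to 0.05 (added after the data were seen), the replicate block, leaving out each library, and the muscle or white fat marker score as a covariate. Intervals are 95% Wald intervals. Exact permutation tests used all 70 arrangements. Floors are 3 counts. The scripts were tested on simulated counts.

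Members described with all values are those with a p under 0.05, those whose groups did not overlap at a mean of at least 10, the 2 highest of each role, and Adgre1, Csf1r, Trem2, Tyrobp, Tnf and Cd9. H2-Eb1, H2-DMb1 and others were added after their values were seen. The members and all lists were chosen with earlier results of these data known, so no p was adjusted over a gene list. The values of 1 member are not reported here.

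Groups came from the sample titles. The column of 1 Cd36KO library carries no number. No pair of libraries of a genotype agreed within sampling noise (chi-square over its degrees of freedom from 7.07 to 62.7), which only shows that none was deposited more than once. Figures were drawn with matplotlib 3.10.9.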

Additional observations from a re-analysis of the deposited data

Results flagged for a closer look

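Among the 4 libraries of a genotype, 3 values lay far from the other 3, out of 68 groups of 4 examined. Chance gives such a value in about 1 of 20 groups, or 3.4 here. Fcgr3 had 47.29 normalized counts in Cd36KO replicate 4, against 30.7 to 32.2 in the other Cd36KO libraries. Coro1a had 7.057 in WT replicate 3, against 14.4 to 14.8 in the other WT libraries. Ncf1 had 19.78 in WT replicate 4, against 9.93 to 11.0 in the others.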

How the results depend on the processing

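Over all genes, 284 were called, against 14 by edgeR, 171 with independent filtering off, 188 with the muscle score, 690 with the white fat score and 8 by limma on the authors' log2 values. Leaving out 1 library in turn gave 70 (without WT replicate 2) to 498 genes (without WT replicate 4). Of the members, 1 was called. None was called by edgeR, with filtering off, under the replicate block or by limma, and 2 were called with the filter of 10 counts in 4 libraries (1 of them higher, Cx3cr1) and with the muscle score (1 higher, H2-Aa). With the white fat score, 1 member was higher (Csf1r, 1.97, adjusted p 0.00348) and 0 lower. The median log2 fold change of the members tested in the main fit was 0.46 with that score, whereas leaving out 1 library gave -0.05 to 0.12. Leaving out 1 library gave 0 to 2 called members, 0 to 1 higher and 0 to 2 lower. The Cd36 log2 fold change, -0.48, passed at -0.48 with filtering tuned to 0.05 (adjusted p 0.0475) and at -0.67 with the muscle score (0.0270), and ran from -0.56 to -0.38 when 1 library was left out, passing without WT replicate 4. At a mean of at least 50, 1 member had groups without overlap. The cause of these differences was not tested.

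Of 386 values for the 22 members described in full, 36 changed sign, 11 lost a call (all Retnla) and 5 gained one in the same direction. Csf1r gained a call with its sign changed. With the white fat score, whose markers also separate the genotypes, the log2 fold change was 0.36 for Ccl6, 0.31 for Fcer1g, 2.18 for Clec10a, 0.025 for Ccr2, 0.74 for Lgals3, 0.72 for Pf4, 3.30 for Trem2, -3.20 for Cd9 and 0.0032 for Laptm5. With the muscle score it was -0.10 for Gpnmb, 0.0068 for Csf1r and 0.29 for Fcer1g, and limma gave 0.026 for Csf1r. Leaving out 1 library gave -0.80 to 1.44 for Cd9, -0.61 to 0.026 for Clec10a, -0.28 to 0.12 for Csf1r, -0.25 to 0.15 for Fcer1g, -0.075 to 0.095 for Laptm5 and -1.83 to 0.72 for Trem2. Without a change of sign, it moved Lgals3 (-0.66 to -0.25), Ccr2 (-0.82 to -0.27), Pf4 (-0.43 to -0.11), Adgre1 (-1.02 to -0.29), Itgam (-1.78 to -0.71), Lyz2 (0.0071 to 0.36), Gpnmb (0.012 to 0.71), H2-Aa (0.36 to 0.70) and Itgax (2.02 to 4.35) by over 1.5 times.

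Replicate numbers 2, 3 and 4 occur in both groups, and the correlations of same-numbered libraries over genes were -0.08, 0.26 and 0.12. These do not establish a pairing, since not every one was above 0.1, and of WT replicates 2 to 4 only replicate 3 correlated best with its own number. With the replicate block on these 6 libraries, 0 members were called, against 1 (Ccl6) in the same libraries without the block. Retnla was at -0.89 (adjusted p 0.207) under the block, Lyz2 at -0.011, and without the block Lyz2 was at -0.0042. With library totals of 2679785 to 4097953 counts, members below a mean of 10 got no adjusted p from DESeq2 in the main fit. In some alternatives a few of them did, such as Cd9 with TMM factors (0.999) and Adgre1 (0.957) and Itgax (0.417) without WT replicate 3. Itgax had an adjusted p of 0.302 with filtering off and 0.201 by limma.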
